A study of Mus musculus with 9 samples.

Results

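The cells described are those in which transcripts of Prdm9, Prss50 and Dmc1 were found together in the mouse testis, a combination taken as a mark of leptotene spermatocytes. A barcode was a member when it held at least 1 UMI of each of these 3 genes, at most 1 UMI of Stra8, at most 3 UMIs of Piwil1 and a UMI in at most 2 of 6 later genes (Rad51ap2, Ccnb3, Tafa1, Ccdc152, A830018L16Rik and Zfy2). The members were thus chosen by their measured counts of these 11 genes. A UMI is a molecular tag that counts 1 captured transcript. The rule was met by 632 of the 45132 barcodes with more than 1000 detected genes and under 10% mitochondrial UMIs. They came from droplet libraries of whole testes of 9 mice of C57BL/6 background at postnatal day 24, with 1 library per mouse. The 4 control mice, some of them littermates of the knockouts, gave 62, 40, 71 and 86 cells. Conditional knockout (cKO) mice carried 1 floxed and 1 null allele of the targeted gene and Stra8-iCre, a transgene that expresses Cre recombinase in spermatogonia, so that testicular somatic cells keep the floxed allele. The 2 NELF-B cKO mice, in which exons 1 to 4 of Nelfb are floxed, gave 95 and 43 cells, and the 3 TDP-43 cKO mice, in which exon 3 of Tardbp is floxed, gave 30, 93 and 112 cells.

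Leptotene is the first stage of meiotic prophase, when chromosomes begin to condense along protein axes and SPO11 makes programmed double-strand breaks. PRDM9, a histone methyltransferase with a zinc-finger array, chooses where these breaks fall, and DMC1, the meiosis-specific recombinase, then coats the resected ends and searches for the homologous chromosome. Prss50 encodes a protease-like protein of the testis and M1ap a meiosis 1 associated protein, the remaining marker of this stage. Stra8 drives the entry into meiosis and precedes leptotene, while Piwil1 and the 6 later genes belong to subsequent stages. NELF-B is a subunit of the negative elongation factor that holds RNA polymerase II shortly after initiation, and TDP-43 is an RNA-binding protein that regulates splicing and transcription.

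On the GRCm38 build, Prdm9 lies at chr17:15543079-15564354 on the minus strand, Prss50 at chr9:110857967-110864629 on the plus strand, Dmc1 at chr15:79561497-79605109 on the minus strand and M1ap at chr6:82946902-83030309 on the plus strand. For Prdm9 the rule was met narrowly by most members. Exactly 1 Prdm9 UMI was found in 402 of the 632 cells (63.6%), exactly 1 Prss50 UMI in 180 (28.5%) and exactly 1 Dmc1 UMI in 206 (32.6%). A further 1014 barcodes met every criterion but held no Prdm9 UMI. Because the rule chose the members by these genes, their levels are given only as a description.

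The members fell into 2 kinds. The summed level of 17 genes of the chromosome axis and the synaptonemal complex, which the rule did not use, had a median of 13028 CPM (UMI counts scaled to the same total in every cell or sum of cells) in 223 cells (35.3%) and of 3338 CPM in the other 409 cells (64.7%), when the members were divided at 7000 CPM. Between 6000 and 8000 CPM lay 20 cells (3.16%). The limit was set after the values had been seen, and the classes are ranges of a score. They are called axis-high and axis-low members. Axis-high members were shallower, with a median of 6477 UMIs and 3076 detected genes against 17089 UMIs and 5436 genes in axis-low members. Exactly 1 Prdm9 UMI was nevertheless held by 301 axis-low (73.6%) and 101 axis-high members (45.3%). For Prss50 it was 147 (35.9%) and 33 (14.8%).

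**Figure D1:**
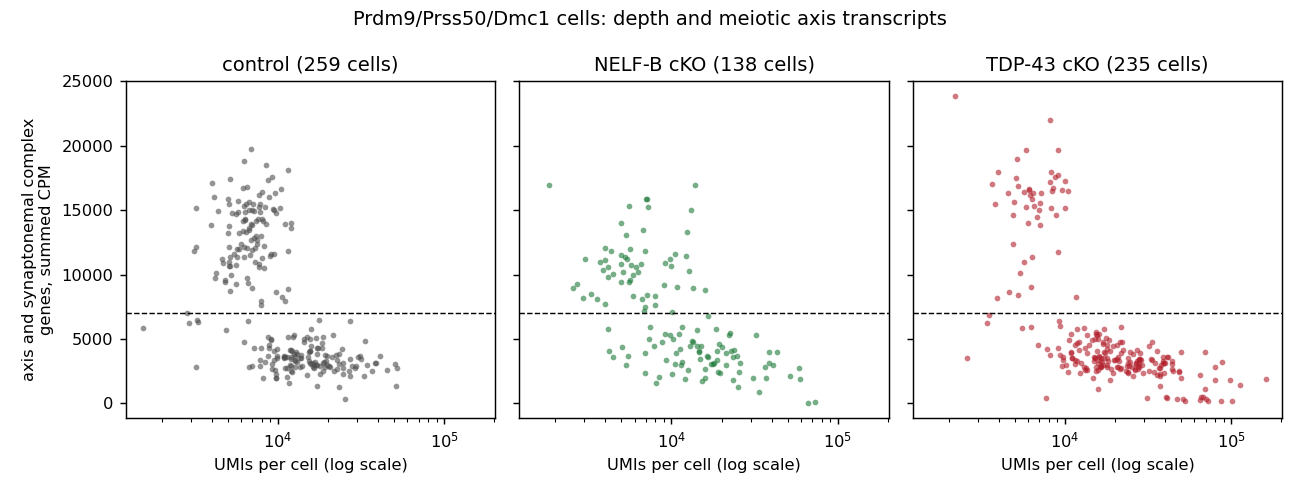
Each point is 1 of the 632 cells, plotted by its UMIs (log scale) and by the summed CPM of the axis and synaptonemal complex genes, with 1 panel per genotype and the limit of 7000 CPM as a dashed line. In each genotype a shallow group of cells lies above the limit, a deeper and larger group lies below it, and 20 cells lie between 6000 and 8000 CPM.

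Genes that the division did not use differed between the classes as well. Apart from M1ap and the genes of the rule, those below lie among the largest ratios of genes of at least 50 CPM in either class. They describe the classes and are no support for the division. Levels are from UMIs pooled over all 9 mice. Meiob and Spata22, whose products bind and protect single-stranded DNA at resected breaks, were at 286 and 57.7 CPM in axis-high members against 6.99 and 1.53 CPM in axis-low members, ratios of 40.9 and 37.7. The ratio was 19.1 for Spo11, which encodes the enzyme that makes the breaks, 16.6 for Hfm1, a helicase needed for crossovers, and 16.4 for Spdya, an activator of CDK2 at meiotic telomeres. Each of these 5 genes was higher in the axis-high members of all 9 mice. Pparg, a nuclear receptor gene, had a ratio of 31.7 and Pbx3, a homeobox gene, of 21.5. M1ap, the marker that the rule did not use, was at 183 CPM in axis-high and 105 CPM in axis-low members, also higher in all 9 mice. The genes of the rule stood at 289 against 60.7 CPM for Prdm9, 691 against 136 CPM for Prss50 and 694 against 109 CPM for Dmc1, but the rule requires a UMI of each in every cell and axis-high cells were shallower, so the choice of members fixes part of this gap.

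In axis-low members the reverse set was found. Zbtb16, Zfyve28, Slit3 and Itgb6 were taken from the other end of that ranking and reached 50 CPM only in this class. Zbtb16, a transcription factor of undifferentiated spermatogonia, was at 54.7 CPM in axis-low and 0.655 CPM in axis-high members. Zfyve28 was 139 times higher in axis-low members. Slit3 was at 55.7 CPM and Itgb6 at 50.7 CPM there, with no UMI of either among the axis-high members. The summed level of 15 spermatogonial genes was between 1052 and 1808 CPM per mouse in axis-low members and between 25.1 and 229 CPM in axis-high members. Among genes that neither the rule nor the division used, transcripts of Spo11, Meiob and Spata22 were thus found mostly in axis-high members and spermatogonial ones mostly in axis-low members. The high level of axis genes in axis-high members was fixed by the division and bears on neither.

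The genes that set all 632 members apart from the other barcodes were mostly those of the axis-low members. Among genes of at least 50 CPM, the largest ratio was that of Gm42884 at 7.43, followed by Prdm9, a gene of the rule, at 7.19. Lin28a, an RNA-binding protein gene of early spermatogonia, was at 310.2 CPM in members against 49.5 CPM elsewhere, a ratio of 6.27, but at 15.7 CPM in axis-high and 359 CPM in axis-low members. Esx1, an X-linked homeobox gene, had a ratio of 6.02 and stood at 20.3 CPM in axis-high and 178 CPM in axis-low members. Zfp286os (704 CPM) and Plekhg5 (119 CPM) were likewise concentrated in axis-low members, with 11.1 and 5.90 CPM in the axis-high ones. Mki67, a proliferation gene, was closer, at 344 CPM in axis-high and 430 CPM in axis-low members.

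The RefSeq promoter windows of these leading genes, from 250 bases before to 50 after an annotated start (GRCm38.p6), were available for 11 of 15 genes by symbol and were searched on both strands for CACGTG (E-box), TTCCCGC (E2F) and TGACGTCA (CRE). The sequences of Prdm9, the gene of the rule with the highest ratio, and of Esx1 are shown because each held a match, in capitals.
Prdm9, chr17:15564305-15564604, minus strand: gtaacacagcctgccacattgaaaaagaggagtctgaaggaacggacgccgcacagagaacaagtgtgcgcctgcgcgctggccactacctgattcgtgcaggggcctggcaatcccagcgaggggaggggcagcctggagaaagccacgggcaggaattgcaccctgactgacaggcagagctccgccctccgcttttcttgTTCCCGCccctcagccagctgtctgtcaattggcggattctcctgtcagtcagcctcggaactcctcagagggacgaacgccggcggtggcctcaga
Esx1, chrX:137120277-137120576, minus strand: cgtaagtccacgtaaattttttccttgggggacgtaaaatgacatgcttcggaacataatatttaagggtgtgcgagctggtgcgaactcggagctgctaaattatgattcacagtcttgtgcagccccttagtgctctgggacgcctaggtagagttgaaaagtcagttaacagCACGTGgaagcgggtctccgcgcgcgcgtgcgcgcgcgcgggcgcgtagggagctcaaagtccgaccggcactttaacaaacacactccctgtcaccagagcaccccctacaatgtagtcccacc
The Prdm9 window is the upstream one of 2 annotated starts, and the other window held none of the 3 motifs. Besides these, only Gm12248 among the leading genes held a match, to the E-box. Of 32851 promoter windows, 7.15% held the E-box, 4.60% the E2F motif and 1.79% the CRE, so that single matches among a few genes are near what any promoters show. A match is a string of letters and not evidence of binding.

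The limits of the rule had cells of both kinds on either side. Of members with no UMI in the 6 later genes 6.76% were axis-high, of those with 1 such gene 32.6% and of those with 2 such genes 68.2%. Barcodes with 3 later genes, which just miss the rule, were axis-high in 91.5% of 188 cases. Across Stra8 the share moved little, from 34.3% at 0 UMIs and 36.7% at 1 UMI to 32.7% of the 147 barcodes with 2 UMIs, just outside. Among barcodes failing the Stra8 limit alone, 838 of 1429 were axis-high, and among those failing the limits on Piwil1 or the later genes alone, 531 of 622. Each of these neighbouring groups held more axis-high cells than the 223 inside the rule.

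**Figure D2:**
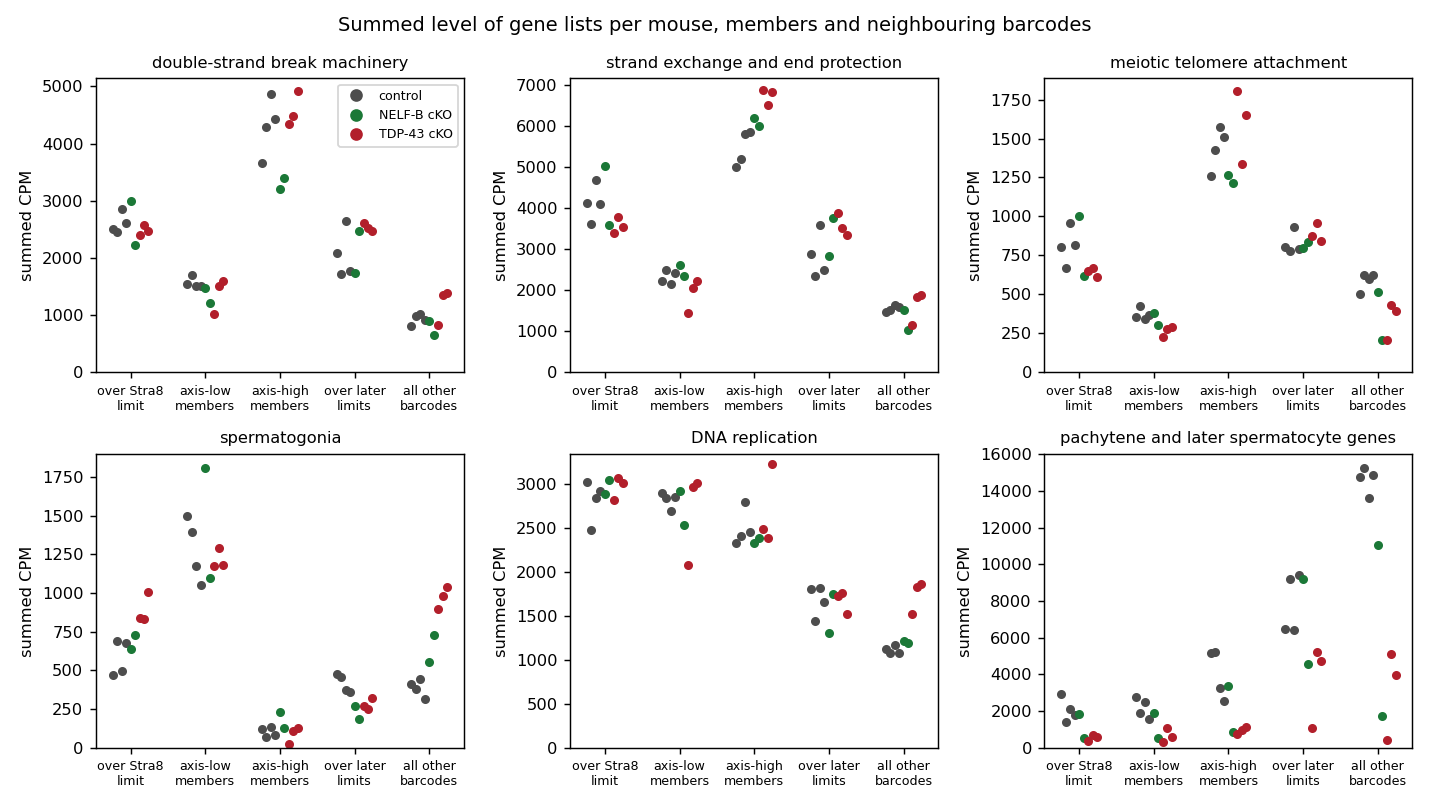
Each point is 1 mouse, with the summed CPM of a gene list on the vertical axis and 5 sets of barcodes on the horizontal axis (those failing only the Stra8 limit, axis-low members, axis-high members, those failing only the Piwil1 or later-gene limits, and all other barcodes past the filter). The spermatogonial list is highest in axis-low members, at 1052 to 1808 CPM, and the double-strand break and strand exchange lists, which include the rule genes Prdm9, Dmc1 and Rad51ap2 and the axis gene Hormad1, are highest in axis-high members.

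Of the filtered barcodes, members made up 0.813%, 0.473%, 1.38% and 1.76% per control mouse, 1.68% and 1.44% per NELF-B cKO mouse and 0.760%, 3.08% and 3.24% per TDP-43 cKO mouse. The groups overlapped. The mean was 1.11% ± 0.576 in control (SD, n = 4), 1.56% ± 0.172 in NELF-B cKO (n = 2, exact two-sided permutation p = 0.533) and 2.36% ± 1.39 in TDP-43 cKO (n = 3, exact permutation p = 0.229). The smallest p that these designs allow is 0.133 for NELF-B cKO and 0.0571 for TDP-43 cKO. Filtered barcodes differed in depth, with medians of 1754 to 6369 UMIs in control mice against 5165 and 17312.5 in NELF-B cKO and 14117 to 19254 in TDP-43 cKO mice, and among barcodes of at least 5000 UMIs the cKO to control ratio of the share turned from 1.41 to 0.748 for NELF-B cKO and from 2.13 to 0.949 for TDP-43 cKO. No direction can be read from the share of members.

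Axis-high cells were 58.1%, 20.0%, 43.7% and 46.5% of the members in control mice, 48.4% and 30.2% in NELF-B cKO mice and 16.7%, 22.6% and 20.5% in TDP-43 cKO mice. Control replicate 2 lay within the range of the TDP-43 cKO mice, and the other control mice lay above it. The means were 42.1% ± 16 in control (SD, n = 4), 39.3% ± 12.9 in NELF-B cKO (n = 2, exact permutation p = 1, 1 after adjustment over 16 tests of per-mouse values) and 19.9% ± 3.00 in TDP-43 cKO (n = 3, exact permutation p = 0.171, adjusted p = 0.305). Counted against all filtered barcodes, axis-high members were 0.498% ± 0.305 in control and 0.496% ± 0.320 in TDP-43 cKO (exact permutation p = 0.971, n = 4 and 3). In NELF-B cKO they were 0.626% ± 0.269 (ratio 1.26, exact permutation p = 0.933, n = 4 and 2). Counted against barcodes of at least 5000 UMIs, axis-high members of that depth were 1.19% ± 0.632 in control, 0.719% ± 0.411 in NELF-B cKO (ratio 0.602, exact permutation p = 0.4, n = 4 and 2) and 0.465% ± 0.296 in TDP-43 cKO (ratio 0.390, exact permutation p = 0.171, n = 4 and 3).

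**Figure D3:**
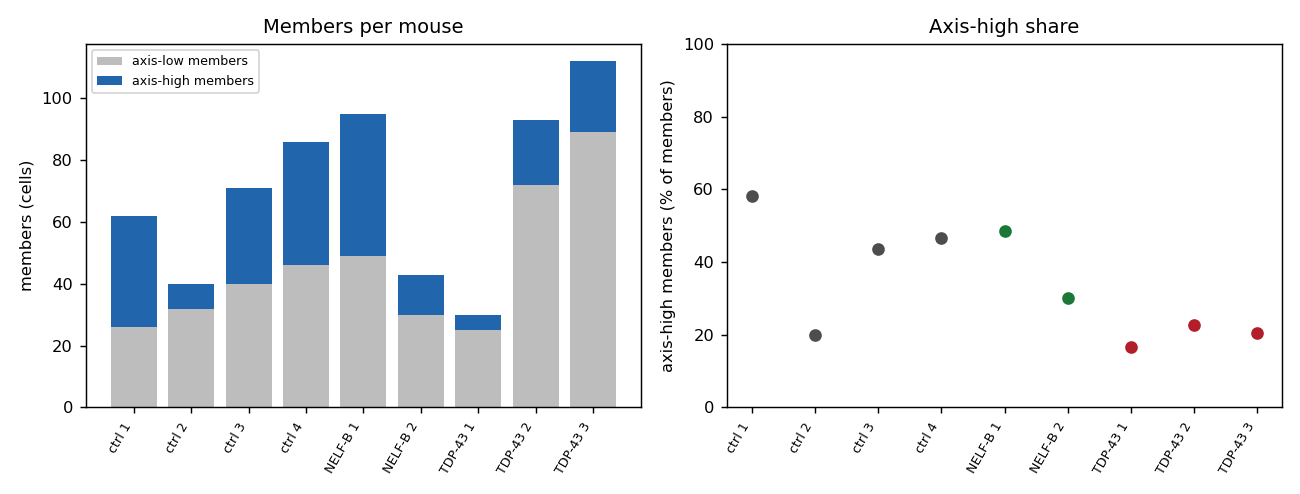
The left panel shows the number of members per mouse as stacked bars of axis-low (grey) and axis-high (blue) cells, and the right panel the axis-high share of members per mouse in percent. The TDP-43 cKO mice sit between 16.7% and 22.6%, as does control replicate 2 at 20.0%, while the other control mice sit between 43.7% and 58.1%.

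The libraries differed in ways that touch these cells. Sertoli transcripts, summed over 13 genes, were at 306 to 1391 CPM in members of control mice, at 727 and 2997 CPM in NELF-B cKO and at 3013 to 5609 CPM in TDP-43 cKO mice, and 44 members (6.96%) held over 2000 CPM. In axis-high members the same sum was at 432 to 846 CPM in control, 987 and 2204 CPM in NELF-B cKO and 839 to 1030 CPM in TDP-43 cKO mice. Members of control replicate 2 held 868 CPM of 11 immune genes, against 10.1 to 32.6 CPM in the other mice. The sum of 8 Leydig genes was at 52.6, 44.1, 1007 and 61.7 CPM in members of control mice, 309 and 1288 CPM in NELF-B cKO and 1198, 257 and 274 CPM in TDP-43 cKO mice. In axis-high members it was at 57.2, 33.2, 34.4 and 41.1 CPM in control, 93.8 and 290.2 CPM in NELF-B cKO and 125, 51.4 and 46.8 CPM in TDP-43 cKO mice. Free RNA, judged from Sertoli, Leydig and round spermatid transcripts and their level in barcodes of 1 to 100 UMIs, was estimated at 12.9% to 42.4% of the UMIs of axis-high members, highest in control replicates 2 and 1. Round spermatid transcripts, summed over 14 genes, were at 102 to 1329 CPM in members of control mice, at 400 and 17.0 CPM in NELF-B cKO and at 22.2 to 81.8 CPM in TDP-43 cKO mice. Doublet calling marked 0.210% of the filtered barcodes and 2 members, too few to be of use. No barcode was a member in 2 libraries, although 260 pairs of filtered barcodes, 5 of the members among them, shared a barcode between libraries. The UMIs of all members summed to between 570100 and 2474591 per mouse, and those of axis-high members to between 39871 (TDP-43 cKO replicate 1, from 5 cells) and 291998.

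The median depth of members was 10487 ± 3106 UMIs in control mice, 12301 ± 6150 in NELF-B cKO and 19444 ± 6307 in TDP-43 cKO mice (n = 4, 2 and 3, exact permutation p = 0.667 and 0.0571). X-linked genes gave 2.08% ± 0.138 of the UMIs in control and 2.67% ± 0.232 in TDP-43 cKO mice, higher in every TDP-43 cKO mouse (exact permutation p = 0.0571, n = 4 and 3, adjusted p = 0.267). They gave 2.21% ± 0.276 in NELF-B cKO mice (exact permutation p = 0.533, n = 2). Cytosolic ribosomal protein genes gave 9.46%, 11.8%, 10.2% and 9.32% in control, 7.68% and 8.14% in NELF-B cKO and 11.8%, 11.8% and 11.1% in TDP-43 cKO mice. Both NELF-B cKO mice lay below every control mouse, at the smallest p of this design (exact permutation p = 0.133, n = 4 and 2, adjusted p = 0.267).

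Transcripts of the targeted genes were counted first. Nelfb (chr2:25199712-25211489, minus strand) stood at 100.0, 75.6, 49.98 and 69.2 CPM in members of control mice, at 0.917 and 1.13 CPM in NELF-B cKO mice and at 41.5, 60.4 and 61.8 CPM in TDP-43 cKO mice. A single Nelfb UMI was left in each NELF-B cKO mouse, and the groups did not overlap (log2 fold change -6.04, SE 0.51, adjusted p = 0.00560, edgeR). In axis-high members neither NELF-B cKO mouse had a Nelfb UMI, which makes the level at least 8.10-fold lower than in control when 3 counts over the group are taken as the floor.

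Tardbp (chr4:148612382-148627019, minus strand) stood at 179, 96.1, 114 and 119.6 CPM in control, 95.4 and 108 CPM in NELF-B cKO and 58.7, 47.1 and 44.5 CPM in TDP-43 cKO members. All TDP-43 cKO mice lay below all others, and the edgeR test missed the threshold (log2 fold change -1.35, SE 0.23, adjusted p = 0.0569). In axis-high members it passed (log2 fold change -1.71, SE 0.44, adjusted p = 0.0387), although the groups overlapped there, at 225, 66.4, 152 and 168 CPM in control and 0, 77.0 and 46.8 CPM in TDP-43 cKO, and neither DESeq2 nor edgeR with the expected free RNA subtracted called it. A UMI is read from the 3′ end of a transcript and does not show whether exon 3 is present. A Tardbp UMI was found in 57.4% ± 5.42 of members in TDP-43 cKO and 71.8% ± 3.44 in control mice (exact permutation p = 0.0571, n = 3 and 4, adjusted p = 0.267). By mouse, 19, 49 and 63 TDP-43 cKO members held a Tardbp UMI. The study discarded cKO germ cells that still expressed their targeted gene, whereas such members were kept here. The tests on axis-high members were not repeated without them. Whether these cells had escaped the deletion was not tested.

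Across all members, 12073 genes were tested on the UMIs summed per mouse. A gene was called at an adjusted p under 0.05. Nelfb was the only gene called in NELF-B cKO against control (0.00828% of the genes tested), and also in TDP-43 cKO against NELF-B cKO (0.00828%). In TDP-43 cKO against control no gene was called (0%), although 3293 genes (27.3%) had an unadjusted p under 0.05 and the smallest adjusted p was 0.0569. DESeq2 called 66 genes for NELF-B cKO, 1479 for TDP-43 cKO and 220 between the cKOs on the same sums. It gave no adjusted p for 8665, 38 and 3065 of the 12073 genes, so these counts rest on unlike numbers of genes. Without NELF-B cKO replicate 1 or replicate 2, edgeR itself called 1084 or 1120 genes for TDP-43 cKO. Which genes move in the members as a whole therefore rests on the test and on single mice.

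Nelfb apart, no gene of the fixed lists was called over all members, and the lists are described by their counts at an unadjusted p under 0.05 and by their medians. Of 16 axis and synaptonemal complex genes tested, 13 had lower values in TDP-43 cKO at an unadjusted p under 0.05 and none passed the adjusted threshold, with a median log2 fold change of -0.77 against -0.01 over all genes. The 9 telomere attachment genes had a median of -1.01, which was 0.09 in axis-high members alone (8 genes tested) and -0.47 in axis-low members alone. The 25 strand exchange genes had a median of -0.52, which was 0.27 in axis-high (20 genes tested) and -0.16 in axis-low members (23 genes tested). All 13 Sertoli genes had higher values at an unadjusted p under 0.05, with a median of 2.76, and 9 of 11 round spermatid genes had lower ones, with a median of -2.86. In this contrast 27.3% of all genes reached that p in either direction. The 8 Leydig genes had medians of 1.00 in TDP-43 cKO and 1.63 in NELF-B cKO, each with 2 genes higher at an unadjusted p under 0.05. The axis-high share and the Sertoli and Leydig levels given above moved with these lists, and their part was not tested. For NELF-B cKO, 43 of 78 ribosomal protein genes (median -0.36) and 6 of 12 genes of the break machinery (median -0.73) had lower values at an unadjusted p under 0.05, where 11% of all genes reached that p in either direction. In TDP-43 cKO 7 of the 12 break machinery genes had lower values at that p, with a median of -0.68. Between the cKOs 60 of 78 ribosomal protein genes had higher values in TDP-43 cKO at that p (median 0.57), against 13.7% of all genes in either direction. Over all members 12 immediate early and stress genes summed to 3159 and 4367 CPM in NELF-B cKO and 2521 to 3021 CPM in control mice. The part of these, and of the Sertoli levels given above, in the NELF-B cKO lists was not tested.

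The axis-high members were then tested alone, as an alternative chosen after the data had been seen, on 5003 genes and without those of the axis list. The axis list itself differed by genotype in these cells. Its sum was at 12108 to 14158 CPM in control, 10515 and 11944 CPM in NELF-B cKO and 15161 to 15456 CPM in TDP-43 cKO mice, without overlap. The part of this difference in the results below was not tested. For NELF-B cKO against control 60 genes were higher (1.2%) and 41 lower (0.82%). In TDP-43 cKO 10 genes rose (0.2%) and 108 fell (2.16%), and between the cKOs 36 were higher (0.72%) and 20 lower (0.4%) in TDP-43 cKO. The balance of directions was not stable. Between the cKOs it was 3 higher and 14 lower without NELF-B cKO replicate 1 and 40 higher and 148 lower without replicate 2. For NELF-B cKO against control it was 34 higher and 43 lower without NELF-B cKO replicate 1, and 57 higher and 104 lower with the expected free RNA subtracted. Control replicate 2 entered with 8 cells and TDP-43 cKO replicate 1 with 5. Gene levels below are those of axis-high members in CPM, and the axis-high barcodes that fail only the Stra8 limit, from the same 9 mice, are set beside them with 9739 genes tested. Among those barcodes 0.688% of genes were called higher and 0.729% lower in NELF-B cKO, 0.801% and 3.7% in TDP-43 cKO, and 2.09% and 1.07% in TDP-43 cKO against NELF-B cKO. A second set of neighbours, the axis-high barcodes that fail only the limits on Piwil1 or the later genes, was tested on 10669 genes. There edgeR called no gene in NELF-B cKO against control (0%), with 773 higher and 884 lower at an unadjusted p under 0.05, and none between the cKOs (0%), with 569 and 498 at that p. Nelfb itself missed the threshold there (log2 fold change -3.36, adjusted p = 0.0952). In TDP-43 cKO against control 0.853% of genes were called higher and 2.77% lower. Of the 101 genes called in axis-high members of NELF-B cKO, 23 were called in the same direction over the Stra8 limit and 0 over the later limits, where 92 of 101 had the same direction. Of the 118 of TDP-43 cKO, 91 and 60 were called again, and of the 56 between the cKOs, 37 and 0. The mice of the groups compared did not overlap for 98 of the 101, 113 of the 118 and 55 of the 56 called genes. Lack of overlap was also a condition for naming genes by fold change, so it adds nothing to the calls of those genes. Its share over all genes was not counted, and no such share is given for the genes with the same direction. Neither count can therefore be read as a result about the called genes.

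In NELF-B cKO, genes that act at double-strand breaks were among those that fell. Spo11 stood at 196, 99.6, 143 and 185 CPM in control and at 66.0 and 54.4 CPM in NELF-B cKO mice, with no overlap (log2 fold change -1.38, SE 0.35, adjusted p = 0.0432, edgeR). In TDP-43 cKO mice it stood at 75.2, 85.6 and 129 CPM and was not called (adjusted p = 0.331). Zcwpw1, which encodes a reader of the histone marks that PRDM9 makes, fell from 936 ± 153 CPM in control (SD, n = 4) to 472 ± 64.6 CPM (n = 2) in NELF-B cKO (log2 fold change -0.93, SE 0.22, adjusted p = 0.0301). Hsf2bp, whose product binds BRCA2, stood at 257, 232, 403 and 315 CPM in control and 122 and 163 CPM in NELF-B cKO (log2 fold change -1.15, SE 0.30, adjusted p = 0.0458). Every control mouse lay above both NELF-B cKO mice for these genes. In the barcodes over the Stra8 limit Hsf2bp was called lower as well (log2 fold change -0.95, adjusted p = 0.0362), while Spo11 (-0.79, adjusted p = 0.154) and Zcwpw1 (-0.32, adjusted p = 0.215) were not. Over the later limits none of the 3 was called, with log2 fold changes of -0.54 for Hsf2bp, -0.44 for Spo11 and 0.02 for Zcwpw1. Spo11 in free RNA stood at 62.2, 80.4, 56.3 and 71.2 CPM in control and 53.02 and 16.2 CPM in NELF-B cKO, and with the expected free RNA subtracted Spo11, Zcwpw1 and Hsf2bp were all still called lower. DESeq2 did not call Spo11 and Hsf2bp, and none of the 3 genes kept its call in every fit that left out 1 mouse. With the replicate number as a block in edgeR none of the 3 was called (adjusted p = 0.129 for Spo11, 0.0978 for Zcwpw1 and 0.175 for Hsf2bp).

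Most other genes of these lists were not called. Of 10 break machinery genes tested in axis-high members, those 2 were called lower, with a median log2 fold change of -0.29 against -0.02 over all genes, and of 20 strand exchange genes Hsf2bp alone was called, with a median of 0.11. Meiob was at 290.0, 232, 202 and 250.0 CPM in control, 288 and 345 CPM in NELF-B cKO and 251, 359.5 and 374 CPM in TDP-43 cKO mice, with adjusted p-values of 0.490 and 0.392. Spata22 was at 78.0 ± 29.8 CPM in control and 39.0 ± 3.83 CPM in NELF-B cKO (adjusted p = 0.413, edgeR), and Rad51c at 65.2 ± 24.7 and 142 ± 132 CPM (adjusted p = 0.420). M1ap stood at 110.3, 133, 143 and 168 CPM in control, 226 and 145 CPM in NELF-B cKO and 251, 257 and 263 CPM in TDP-43 cKO. Every TDP-43 cKO mouse lay above every control mouse for M1ap, short of the threshold (log2 fold change 0.86, adjusted p = 0.0744).

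Ribosomal protein transcripts were lower in NELF-B cKO as a group, with exceptions. Of 76 tested genes 68 had a negative log2 fold change, 9 were called lower (Rpl12, Rpl22, Rpl32, Rpl27a, Rpl41, Rpl23a, Rps24, Rpl39 and Rpl36a) and Rps19 was called higher, with a median of -0.43. Rpl36a, an X-linked gene of the large subunit (chrX:134585654-134588062), stood at 192, 349, 379 and 205 CPM in control, 69.5 and 90.7 CPM in NELF-B cKO and 527, 308 and 369 CPM in TDP-43 cKO mice. The NELF-B cKO mice lay below all 7 others (log2 fold change -1.77, SE 0.36, adjusted p = 0.0155). Rps24 stood at 3579 ± 269.7 CPM in control (SD, n = 4) and 1755 ± 365 CPM in NELF-B cKO (n = 2), with log2 fold change -1.02, SE 0.21, adjusted p = 0.0155 by edgeR. With the replicate block Rps24, Rpl32, Rpl27a, Rpl39 and Rps19 lost their calls, and Rpl12, Rpl22, Rpl41, Rpl23a and Rpl36a kept theirs. In the barcodes over the Stra8 limit 27 of 79 ribosomal protein genes were called lower in NELF-B cKO and none higher, with a median of -0.54, and over the later limits none of 78 was called, with a median of -0.40. With the expected free RNA subtracted from the axis-high sums, 34 of 76 were called lower and none higher (median -0.88), and Rps19 was no longer called. In the same axis-high members 12 immediate early and stress genes summed to 4447 and 5169 CPM in NELF-B cKO mice against 2773 to 3525 CPM in control, with 4 of 5 tested genes above 0 and none called. Transcripts of the mitochondrial genome summed to 60997 and 77750 CPM against 35414 to 59196 CPM in control, with 12 of 12 tested genes above 0, 4 of them at an unadjusted p under 0.05 and none called. The part of either in these results was not tested. In TDP-43 cKO axis-high members the mitochondrial sum was also above every control mouse, at 75142, 65146 and 62861 CPM, with 12 of 12 tested genes above 0 and 4 at an unadjusted p under 0.05, and the stress sum was at 3035, 3749.5 and 3586 CPM. Ribosomal protein genes have many processed copies in the genome, so the assignment of reads to single genes is uncertain.

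Other transcripts fell in NELF-B cKO. Sdf2l1, which encodes a chaperone component of the endoplasmic reticulum, stood at 237, 149, 172 and 134 CPM in control, 38.2 and 36.3 CPM in NELF-B cKO and 201, 111 and 152 CPM in TDP-43 cKO mice (log2 fold change -2.18, SE 0.39, adjusted p = 0.00983 for NELF-B cKO, edgeR). The barcodes over the Stra8 limit gave a log2 fold change of -1.57 for Sdf2l1 (adjusted p = 0.00937). Tex101, a germ cell surface protein gene, stood at 2177, 1710.1, 2105 and 1719 CPM in control and 862 and 1143 CPM in NELF-B cKO (adjusted p = 0.0207). The largest falls by the naming rule were those of Tpst1 (-2.25 on the log2 scale), Sdf2l1, Kif9 (-2.10), Syngr4 (-1.95), Tm2d2 (-1.78) and Rpl36a. DESeq2 gave no adjusted p for Tpst1, Kif9 and Tm2d2. With the replicate block Tex101, Kif9 and Tm2d2 lost their calls, and Tpst1, Sdf2l1, Syngr4 and Rpl36a kept theirs. Kif9 was also called in TDP-43 cKO against control (adjusted p = 0.0278, edgeR) and was not called between the cKOs (adjusted p = 0.905). Kif9 and Syngr4 were lower in free RNA too, above all in NELF-B cKO replicate 2. In the 2 NELF-B cKO mice free RNA held 116 and 32.8 CPM of Kif9 against 145 ± 25.8 CPM in control, and 381 and 95.5 CPM of Syngr4 against 485 ± 21.4 CPM. For Tm2d2 the values were 135 and 108 CPM against 159 ± 5.50 CPM.

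H2afz, H2afx and Hspa8 were among the 60 genes that rose in NELF-B cKO, of which 51 were also higher in free RNA, 13 of them by more than 1 on the log2 scale, with a median log2 ratio of 0.44 in free RNA against 0.04 over all 5003 genes. H2afz, which encodes the histone variant H2A.Z, stood at 923, 648, 880.3 and 723 CPM in control, 1883 and 2394 CPM in NELF-B cKO and 702, 865 and 708 CPM in TDP-43 cKO mice (log2 fold change 1.42, SE 0.20, adjusted p = 0.000670, edgeR). H2afx, the variant phosphorylated at breaks, stood at 149 ± 39.0 CPM in control (SD, n = 4) and 351 ± 4.46 CPM in NELF-B cKO (n = 2, log2 fold change 1.30, SE 0.27, adjusted p = 0.0168). Hspa8, a constitutive HSP70 chaperone gene, stood at 478, 465, 433 and 483 CPM in control and 1014 and 1161 CPM in NELF-B cKO (log2 fold change 1.24, SE 0.21, adjusted p = 0.00858). In all 3 cases both NELF-B cKO mice exceeded every control mouse. With the replicate block in edgeR H2afx lost its call (adjusted p = 0.0793). For Hspa8 the free RNA stood at 392 and 1371 CPM in NELF-B cKO against 271, 318, 374 and 402 CPM in control, so that replicate 2 was high in both. Free RNA of H2afz stood at 1221 and 1015 CPM in NELF-B cKO and 1267, 1078, 1179 and 1064 CPM in control, and that of H2afx at 129 and 128 CPM and 98.0, 113, 98.6 and 113 CPM. The stress and mitochondrial sums given above moved with these genes, and their part was not tested. Histone genes come in families of near-identical copies, and their counts are uncertain in the same way as those of ribosomal protein genes.

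Chchd2, a mitochondrial protein gene, and Neto2, a receptor subunit gene, rose with them, from 639.8 ± 138 to 2182 ± 492 CPM and from 185 ± 19.8 to 641 ± 170.2 CPM (adjusted p = 0.000207 and 0.000601, edgeR). Free RNA of Chchd2 stood at 1245 and 3029.8 CPM in NELF-B cKO and 945, 856, 1094 and 1094 CPM in control, and that of Neto2 at 26.1 and 27.6 CPM and 9.78, 28.2, 11.3 and 12.8 CPM. Tmsb10, an actin-binding thymosin gene, rose from 434 ± 175 to 1110.0 ± 175 CPM (adjusted p = 0.0114). Chchd2, H2afz, Hspa8, Neto2 and Tmsb10 were the 5 of 101 genes called whichever of the 9 mice was left out. In the barcodes over the Stra8 limit their log2 fold changes were 1.38, 0.95, 0.80, 0.84 and 1.22, each called. Over the later limits they were 0.88, 0.57, 0.05, 1.08 and 0.58, none called (adjusted p from 0.140 to 0.889). With the replicate block in edgeR Tmsb10 lost its call (adjusted p = 0.0567), and Chchd2, H2afz, Hspa8 and Neto2 kept theirs. Of the 101 genes, 39 were called in the same direction with that block. By size, the rule named Sgcz, Psma7 (2.67), Pdlim7 (2.34), Hist1h2aa (2.10), Spen (1.90) and Fgfr2 (1.86). Sgcz stood at 0, 0, 4.92 and 0 CPM in control and 59.1 and 118 CPM in NELF-B cKO mice, so that its fitted fold change depends on the prior count, and it was too low to be tested over the Stra8 limit. Of these mice only the NELF-B cKO ones carried it past the filter on low counts. Its place as the largest rise is therefore partly fixed by that filter. Several of the others rest on 1 mouse, with Fgfr2 at 167 and 825 CPM and Hist1h2aa at 841 and 263 CPM in the 2 NELF-B cKO mice, and none of Psma7, Pdlim7, Hist1h2aa, Spen and Fgfr2 was called over the Stra8 limit (adjusted p from 0.141 to 0.669). DESeq2 called Hist1h2aa and Fgfr2 and gave no adjusted p for the other 4. Of these genes named by size, only Hist1h2aa kept its call with the replicate block.

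**Figure D4:**
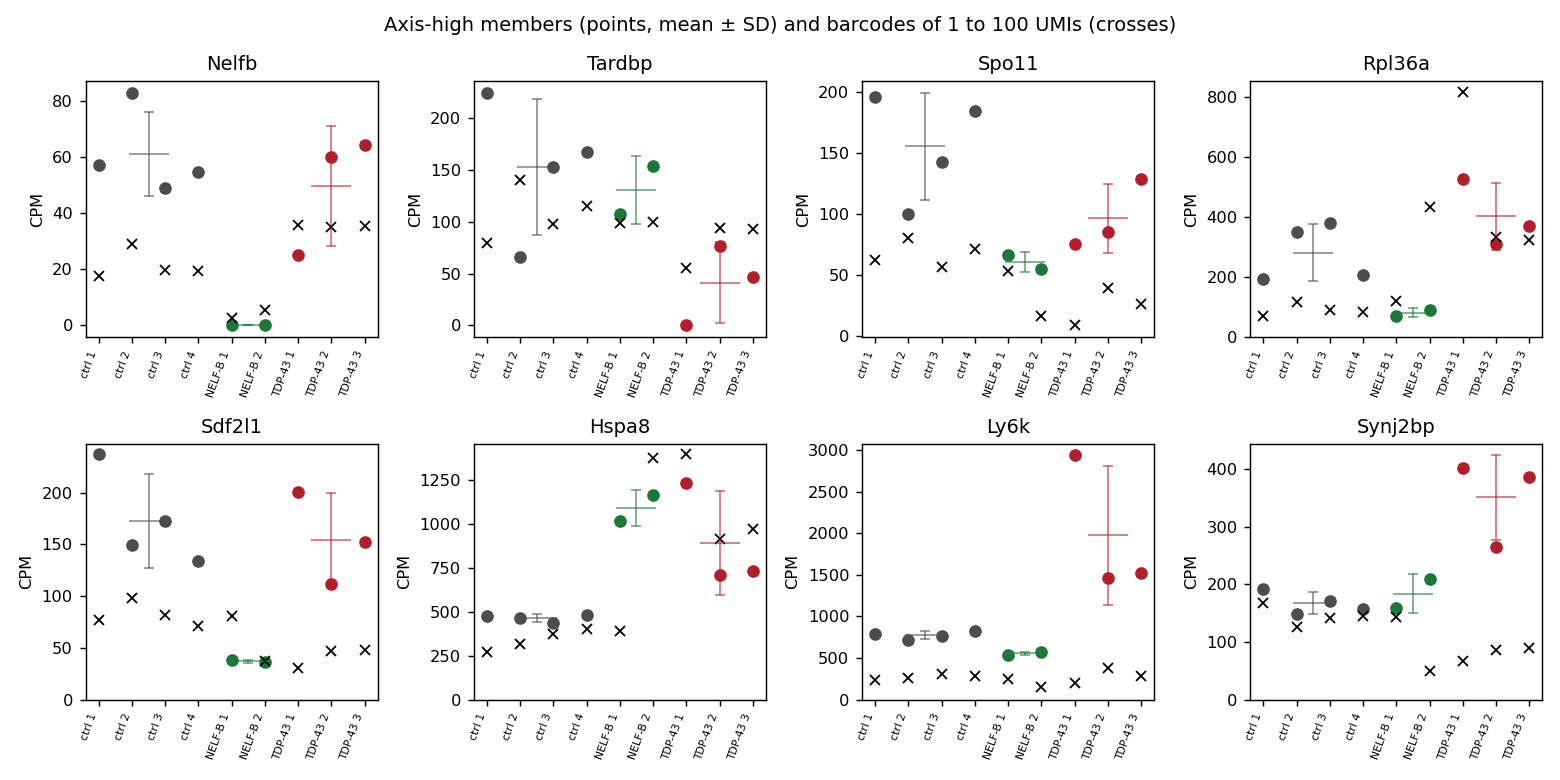
CPM of 8 named genes per mouse in axis-high members (points, with the group mean ± SD) and in barcodes of 1 to 100 UMIs, which show free RNA (crosses). Spo11, Rpl36a and Sdf2l1 are lower in both NELF-B cKO mice than in every control mouse, and Ly6k and Synj2bp are higher in every TDP-43 cKO mouse than in every control mouse. For Rpl36a, Sdf2l1, Ly6k and Synj2bp this lack of overlap was part of the rule that named genes by fold change.

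Of the 108 genes called lower in axis-high members of TDP-43 cKO, 106 were also lower in the free RNA of the same libraries, 102 of them by more than 1 on the log2 scale, with a median log2 ratio of -2.50 in free RNA against 0.45 over all 5003 genes. Smcp, a sperm mitochondrial capsule gene, Tnp1, a transition protein gene of spermatids, Ccdc192 and Tex22 had no UMI in any TDP-43 cKO mouse, which makes them at least 8.49-, 6.13-, 9.17- and 7.05-fold lower than in control, with a floor of 3 counts over the group. Only the other mice carried these genes past the filter on low counts. Their place among the largest falls is therefore partly fixed by that filter. Smcp stood at 89.9, 133, 54.1 and 34.2 CPM in control axis-high members and at 552, 151, 446 and 495 CPM in control free RNA. In TDP-43 cKO free RNA it stood at 5.28, 38.6 and 33.4 CPM.

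Of the 14 round spermatid genes 5 could be tested and Tnp1 alone was called lower. Of 12 pachytene and later spermatocyte genes tested, 6 were called lower in TDP-43 cKO (Hspa2, Ybx2, Meig1, Adam2, Clgn and Ldhc), with a median of -1.73. Ldhc, the testis lactate dehydrogenase gene, stood at 1744, 1677, 993 and 774 CPM in control and 0, 154 and 169.7 CPM in TDP-43 cKO axis-high members (log2 fold change -3.24, SE 0.54, adjusted p = 0.00746, edgeR). Its free RNA stood at 8380.3, 5567, 6757 and 6583 CPM and at 131, 1744 and 1169 CPM. When the expected free RNA was subtracted from each mouse, 2 genes were called in TDP-43 cKO against control, and 25 of the 118 were still abundant enough to be tested, of which only Ly6k was called in the same direction. The number of calls fell from 118 (10 higher and 108 lower) to 1 without TDP-43 cKO replicate 2 and to 2 without replicate 3. These remaining genes, and the 2 called after the subtraction, were all higher in TDP-43 cKO. The part of free RNA in the genes called lower was not tested for single genes beyond this subtraction.

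**Figure D5:**
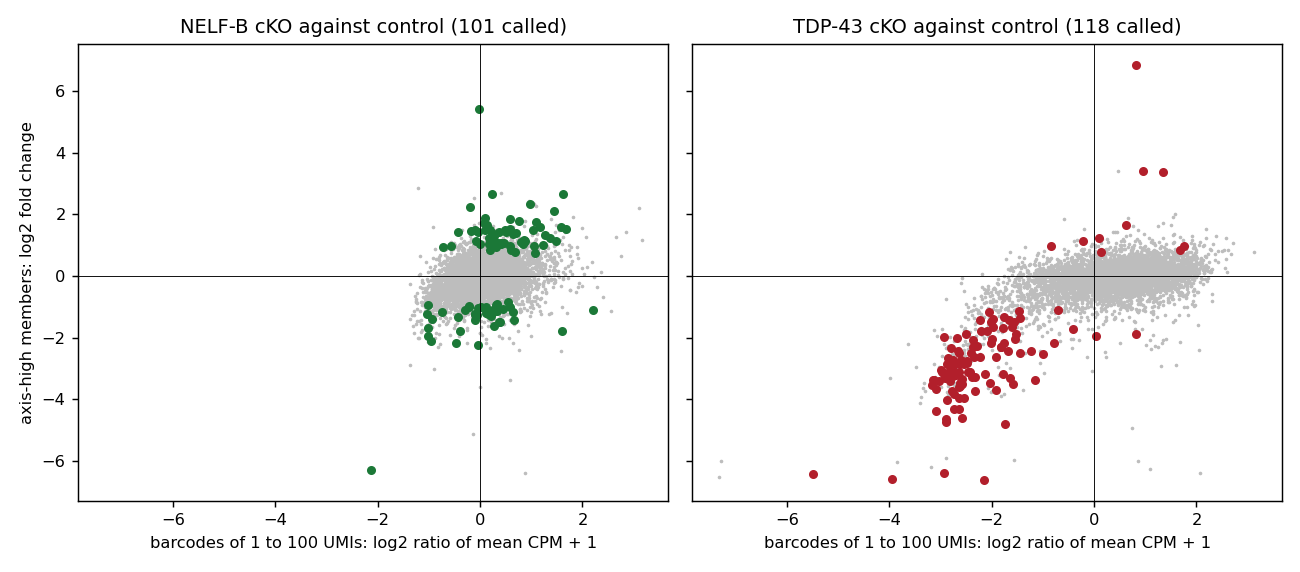
Each grey point is 1 of 5003 genes and each coloured point a called gene, with the log2 ratio of mean CPM + 1 in barcodes of 1 to 100 UMIs on the horizontal axis and the log2 fold change in axis-high members on the vertical axis, for NELF-B cKO (left) and TDP-43 cKO (right) against control. In TDP-43 cKO 106 of 108 called lower genes are lower on both axes, whereas the genes called lower in NELF-B cKO spread to both sides of 0 in free RNA, 20 lower and 21 higher, and 51 of the 60 called higher there are higher in free RNA.

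Ly6k (chr15:74796874-74799986, minus strand), which encodes a surface protein that pairs with TEX101 in germ cells, rose in TDP-43 cKO. It stood at 792, 714, 767 and 829 CPM in control, 542 and 571 CPM in NELF-B cKO and 2934, 1464 and 1521 CPM in TDP-43 cKO axis-high members. Every TDP-43 cKO mouse exceeded all 6 others (log2 fold change 1.25, SE 0.21, adjusted p = 0.00746, edgeR). It was the only gene called in this contrast whichever mouse was left out, and in the barcodes over the Stra8 limit it was called with a log2 fold change of 0.86 (adjusted p = 0.0260). Over the later limits it was not called (log2 fold change 0.50, adjusted p = 0.0921). Its free RNA stood at 237, 256, 311 and 283 CPM in control and 204, 382 and 288 CPM in TDP-43 cKO. Over all members Ly6k did not show this rise, at 389, 148, 229 and 308 CPM in control and 140.0, 145 and 162 CPM in TDP-43 cKO (adjusted p = 0.117).

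Synj2bp, a mitochondrial outer membrane protein gene, stood at 192, 149, 172 and 158 CPM in control, 159.8 and 209 CPM in NELF-B cKO and 401, 265 and 386 CPM in TDP-43 cKO (log2 fold change 0.99, SE 0.23, adjusted p = 0.0264, edgeR), with no overlap of TDP-43 cKO and control. Over the Stra8 limit its log2 fold change was 1.05 (adjusted p = 0.0198), over the later limits 1.02 (adjusted p = 0.0332), and its free RNA went the other way, at 145 ± 17.4 CPM in control and 80.9 ± 11.9 CPM in TDP-43 cKO. Atm, the kinase gene of the break response, rose from 139 ± 23.2 CPM (SD, n = 4) to 298 ± 48.2 CPM (n = 3, log2 fold change 0.98, SE 0.24, adjusted p = 0.0305), but was not called over the Stra8 limit (log2 fold change 0.16, adjusted p = 0.597) or over the later limits (0.89, adjusted p = 0.0899). Hist1h2ba, the testis histone H2B gene, Trim52 and Hspa8 were the other named genes that rose, with log2 fold changes of 1.67, 1.14 and 0.83. Of these, Hist1h2ba and Hspa8 were also called in NELF-B cKO against control (adjusted p = 0.0114 and 0.00858, edgeR). Neither was called between the cKOs (adjusted p = 0.9997 and 0.390). Free RNA of Hspa8 stood at 1397, 914 and 972 CPM in TDP-43 cKO against 271, 318, 374 and 402 CPM in control. None of Hist1h2ba, Trim52 and Hspa8 was called over the Stra8 limit (adjusted p = 0.649, 0.483 and 0.155). Of 10 break machinery genes and 20 strand exchange genes tested, none was called in TDP-43 cKO, with medians of 0.21 and 0.27. DESeq2 called Ly6k, Hist1h2ba and Hspa8 among these named genes but not Synj2bp, Atm and Trim52. With the replicate block Synj2bp, Trim52 and Hspa8 lost their calls, and Ly6k, Hist1h2ba and Atm kept them. The mitochondrial sum given above moved with these genes too, and its part was not tested.

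Prss50, a gene of the rule that is described and not tested, stood at 617, 598, 743 and 634 CPM in control, 413 and 499 CPM in NELF-B cKO and 1429.6, 984 and 1088 CPM in TDP-43 cKO axis-high members. The 3 genotypes did not overlap, in the same order as the axis sums of these cells given above. Prdm9 stood at 237, 415, 300.0 and 301 CPM, 278 and 227 CPM and 376, 317 and 304 CPM, and Dmc1 at 666, 498, 708 and 644 CPM, 667 and 798 CPM and 928, 745 and 761 CPM, and for Prdm9 control overlapped with either cKO.

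The cKOs were also compared with each other, with the same mice as in the contrasts above. Ribosomal protein genes were higher in TDP-43 cKO than in NELF-B cKO for 71 of 76 genes tested, of which 16 were called and none was called lower, with a median of 0.71 against -0.09 over all genes. Set against control, 67 of the 76 had positive values in TDP-43 cKO, 15 of them at an unadjusted p under 0.05 and none called, with a median of 0.22, beside the median of -0.43 in NELF-B cKO given above. Hpse2, a heparanase-like gene, stood at 122 and 272 CPM in NELF-B cKO and 878, 1019 and 819 CPM in TDP-43 cKO, with control at 494, 465, 679 and 634 CPM between them (log2 fold change 2.30, SE 0.30, adjusted p = 0.000528, edgeR). Mdk, the growth factor midkine, showed the same order, at 31.3 and 9.07 CPM and 150.5, 103 and 135 CPM (log2 fold change 2.29, SE 0.52, adjusted p = 0.0381), and over the Stra8 limit its log2 difference was 2.34 (adjusted p = 9.79e-05) and over the later limits 0.89 (adjusted p = 0.373). Gal3st1, a sulfotransferase gene, stood at 13.9 and 63.5 CPM and 100.3, 154 and 193 CPM (log2 fold change 2.36, SE 0.56, adjusted p = 0.0432). DESeq2 called Hpse2 and gave no adjusted p for Mdk and Gal3st1, neither of which was called with the replicate block.

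Lower in TDP-43 cKO than in NELF-B cKO were H2afx (log2 difference -1.37), H2afz (-1.52), Chchd2 (-1.71), Tmsb10 (-2.79) and Ybx3 (-3.23), each called by edgeR. Tmsb10 lay at 987 and 1233 CPM in NELF-B cKO and 100.3, 163 and 187 CPM in TDP-43 cKO, on either side of control. Its free RNA stood at 1592 and 867 CPM and 631, 614 and 564 CPM, lower in every TDP-43 cKO mouse as well. Loxl2, Hipk3, Tesk1 and Smim24 had the largest differences by size. The 2 NELF-B cKO mice were far apart for Loxl2, at 285 and 9.07 CPM, for Hipk3, at 188 and 45.3 CPM, and for Smim24, at 184 and 27.2 CPM, and closer for Tesk1, at 83.4 and 45.3 CPM. None of these 4 was called over the Stra8 limit (adjusted p = 0.618, 0.351, 0.371 and 0.0713), and DESeq2 gave no adjusted p for them and did not call H2afx in this contrast. Rfc4, a clamp loader subunit and the only one of 20 replication genes called, stood at 129 and 109 CPM in NELF-B cKO and 426, 231 and 322 CPM in TDP-43 cKO (adjusted p = 0.0432). With the replicate block H2afx, Hipk3, Tesk1 and Rfc4 lost their calls in this contrast.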

How the data were processed

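Single-cell 3′ RNA libraries of whole testis, 1 per mouse, were sequenced by the authors and processed with Cell Ranger 7.0.0 (demultiplexing with 6.1.1) on mm10, which is GRCm38. The deposited matrices hold whole-number UMI counts per gene and barcode for all barcodes, without a filter on cells and without normalization. The rule for the members was applied to the counts of barcodes that had over 1000 detected genes and less than 10% of UMIs from the mitochondrial genome. The members, gene lists and tests were chosen with earlier results of these data known, and the limit of 7000 CPM between axis-high and axis-low members, with the tests on axis-high members, was chosen after the values had been seen.

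UMIs of the members were summed per mouse. CPM values are these sums scaled to a common total, not corrected for free RNA or gene length, so levels are compared between mice and cells and not between genes. Single values for axis-high against axis-low members, and for members against other barcodes, are from UMIs pooled over all 9 mice. Mice weigh in these by their UMIs, so genotype makeup enters them. Axis-low UMIs were 325303 to 777837 per control and 1067320 to 2303659 per TDP-43 cKO mouse, and axis-high UMIs 60230 to 291998 and 39871 to 170932. edgeR 4.0.16 (R 4.3.3) tested the sums with its quasi-likelihood test, TMM scaling and filterByExpr, on all 9 mice with group means and no other term, and p-values were adjusted by the Benjamini-Hochberg method over all genes tested. The 11 genes of the rule were not tested, nor in axis-high members the axis list. The fit was tested on simulated data with known changes. DESeq2 1.42.0 was an alternative. Values per mouse were compared with exact two-sided permutation tests, whose p-values and those of edgeR measure the spread between mice. Each mouse is a separate animal.

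Free RNA was taken from barcodes of 1 to 100 UMIs. Scrublet, run through Scanpy 1.11.5 with Python 3.11.15, called too few doublets to be used as a filter. Named genes were the rule genes, markers and targeted genes, Spo11, Meiob, Spata22 and Rad51c, the 15 genes with the largest ratio of members to other barcodes at 50 CPM or more, called genes and the 3 most abundant genes of each list (of which the text prints a selection), and per contrast the 6 called genes with the largest fold change each way whose mice do not overlap, without the targeted gene and the rule genes. Since the test over all members called almost nothing, this last part was applied to axis-high members. Genes called whichever mouse was left out were named after their values were seen. Promoters were matched to RefSeq by symbol. Alternatives covered filters, scaling, test, thresholds, pairing, depth, doublets, members that hold the targeted transcript, and each mouse left out.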

Additional observations from a re-analysis of the deposited data

Results flagged for a closer look

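Among 113 sets of 4 control values, 8 held 1 mouse far from the other 3, where chance gives about 1 in 20. The count is near that share, and the sets overlap, since axis-high members are part of all members. The genes are listed as a description. Control replicate 1 was the high mouse for Rad51c (102.1 CPM in axis-high members), Hipk3 (163.4 CPM in axis-high members), Sdf2l1 (131.6 CPM in all members) and Gal3st1 (49.1 CPM in all members). For 4 others a gene was found in 1 control mouse and had no UMI in the other 3. These were Sgcz in replicate 3 (4.92 CPM in axis-high members), Tafa1 in replicate 2 (1.58 CPM in all members), and A830018L16Rik in replicate 4 (4.67 CPM in all members and 13.7 CPM in axis-high members). Each of these values rests on few UMIs.

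The effects of the cKOs differed from each other for Nelfb, with a log2 difference of TDP-43 cKO over NELF-B cKO of 5.62 in all members and 6.24 in axis-high members, where a group without a UMI makes the second value depend on the prior count. In axis-high members the difference was also called by edgeR for Sdf2l1 (1.88), Rpl36a (2.24), Ly6k (1.72), Gal3st1 (2.36), Hpse2 (2.30), Mdk (2.29) and Rpl10 (2.00), all higher in TDP-43 cKO. It was called in the other direction for Loxl2 (-4.71), Hipk3 (-3.80), Tesk1 (-3.40), Smim24 (-3.34), Ybx3 (-3.23) and Tmsb10 (-2.79).

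Barcodes with UMIs of Prdm9, Prss50 and Dmc1 that missed the filter on detected genes or mitochondrial UMIs numbered 49, 77 and 73 in TDP-43 cKO mice, 32 and 15 in NELF-B cKO mice and 15, 25, 21 and 37 in control mice. In every mouse all of them missed the mitochondrial limit, except TDP-43 cKO replicate 3, where 72 of 73 did. Barcodes with the 3 genes that passed the filter numbered 455, 449 and 551, 435 and 229, and 160, 223, 300 and 329 in the same order, so that both counts were highest in TDP-43 cKO mice. Those outside the filter entered no comparison.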

How the results depend on the processing

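The share of members among barcodes reversed from higher to lower than control in NELF-B cKO among barcodes of at least 5000 UMIs (ratio 0.748) and after thinning to 5000 UMIs (0.699), and in TDP-43 cKO in the same settings (0.949 and 0.887) and among barcodes with Prss50 and Dmc1 (0.654). With cKO members holding a Tardbp UMI left out it was 0.948. Control kept all its members there, so that ratio had to fall and says nothing about the share. Without 1 mouse the ratios ran from 1.18 to 1.76 for NELF-B cKO and from 1.73 to 2.85 for TDP-43 cKO. The axis-high share of members had a ratio of 0.935 in NELF-B cKO, 0.719 to 1.15 without 1 mouse and 1.26 as a share of barcodes, and of 0.474 in TDP-43 cKO, 0.403 to 0.543 without 1 mouse.

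Counts of called genes depended on the setting, and the cause was not tested. Over all members, NELF-B cKO against control gave 22 genes without a filter on low counts, 66 by DESeq2, 4 with cKO members holding a Nelfb UMI left out, 2 with such members left out of control too, 2 without members holding a Stra8 UMI and 101 in axis-high members alone. TDP-43 cKO against control gave 1063 without a filter, 1479 by DESeq2, 2 and 42 with members holding a Tardbp UMI left out of cKO or of both, and 118 in axis-high members. The contrast of the cKOs gave 15 without a filter, 220 by DESeq2, 12 with cKO members holding the targeted gene left out, 0 without a Stra8 UMI, 0 at the thresholds of the study (adjusted p below 0.01, log2 change of 1 or more), 56 in axis-high and 3 in axis-low members. Without 1 mouse the counts ran from 1 to 19, from 0 to 1120 and from 0 to 29, with the highest counts of NELF-B cKO (19) and of the contrast of the cKOs (29) without NELF-B cKO replicate 2. In axis-high members subtraction of free RNA gave 161, 2 and 183 genes, the thresholds of the study 8, 25 and 12, and leaving out 1 mouse 39 to 118, 1 to 216 and 17 to 188. NELF-B cKO fell to 39 without control replicate 3 and to 56 without NELF-B cKO replicate 2. TDP-43 cKO rose to 182 and 216 without NELF-B cKO replicate 1 or 2, and fell to 39 and 53 without control replicate 1 or 2 and to 30, 1 and 2 without TDP-43 cKO replicate 1, 2 or 3. The contrast of the cKOs rose to 188 without NELF-B cKO replicate 2, to 85 and 101 without control replicate 1 or 4, and fell to 34 without control replicate 3 and to 17 without NELF-B cKO replicate 1 or TDP-43 cKO replicate 3.

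Replicate numbers are shared between groups. Deviations of same-numbered mice had correlations of -0.452 to 0.242 over 12675 genes. In groups this small, NELF-B cKO above all, the deviations of mice of a group are not independent of each other. The correlations therefore cannot decide whether the numbers pair the mice. With the replicate number as a block, 0 genes were called over all members in each contrast, and 53, 123 and 31 in axis-high members.

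Among genes named beside the test over all members, the direction of M1ap, near 0 in both cKOs, turned with the setting. Its log2 fold change of 0.13 in NELF-B cKO became -0.00708 in axis-low members, and ran from -0.0479 (without NELF-B cKO replicate 1) to 0.28 without 1 mouse. In TDP-43 cKO that of -0.03 became 0.0252 without a filter, 0.0520 with the replicate block, 0.62 and 0.47 with members holding a Tardbp UMI left out of cKO or of both, 0.00234 without doublets, 0.86 in axis-high members, 0.24 without members over the Sertoli limit, and ran from -0.15 to 0.0888 without 1 mouse. Meiob turned in NELF-B cKO from -0.18 to 0.36 in axis-high members and ran from -0.76 to 0.23 without 1 mouse, above 0 without control replicate 1 or NELF-B cKO replicate 2, and in TDP-43 cKO from -1.46 to 0.46 in axis-high members. Rad51c turned in TDP-43 cKO from -0.32 to 0.33 and 0.46 with members holding a Tardbp UMI left out, and to 0.68 in axis-high members. Of the other values of single genes under an alternative, 490 kept direction and side of the threshold, 158 lost and 17 gained a call.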
